A study of Mus musculus with 2 samples.

Results

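The genes described here are the solute carriers (Slc genes) of mouse macrophages, taken as every gene whose symbol begins with Slc and a number and whose expected counts summed to at least 20 over both libraries. The 6 genes with known links to arginine, cystine and iron handling, Slc7a1, Slc7a2, Slc7a11, Slc11a1, Slc11a2 and Slc40a1, were left out by that rule. This gave 190 of the 15623 genes listed in the series. The members were thus selected on their summed expected count (the estimated number of reads assigned to a gene), and not on the difference between the libraries.

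RNA sequencing was performed on thioglycollate-elicited peritoneal macrophages from wild-type C57BL/6 mice aged 6 to 8 weeks. Thioglycollate is an irritant that draws monocytes into the peritoneal cavity, and it was injected at 4% 4 to 5 days before lavage. After adherence for 4 h and starvation in medium with 0.5% FBS, the cells were left nontreated (NT, 1 library) or received interleukin-4 (IL-4) for 6 h (1 library). IL-4 is a cytokine of type 2 immunity and polarizes macrophages to the alternative (M2) state. Both groups share the strain, the wild-type genotype, the thioglycollate injection, adherence and starvation, and whether the cells of several mice were pooled was not given in the sources used here. A label field gives the tissue as bone marrow, whereas the source name gives peritoneal macrophages, which was used.

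Solute carriers are membrane proteins that move small molecules across the plasma membrane and the membranes of mitochondria, lysosomes, the Golgi and vesicles, either along a gradient or coupled to ions or to a second solute. They are numbered in subfamilies by sequence relation, and members of a subfamily often, but not always, carry related substrates. In macrophages, carriers supply amino acids and glucose for activation, return peptides, nucleosides and heme from degraded cargo, and set the zinc and iron available to engulfed microbes.

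The NT library held 11035641 expected counts and the IL-4 library held 11250099. The lowest level that could be detected, set at 3 counts, was 0.272 and 0.267 CPM (counts scaled to a common total). With 1 library per group there were no replicates, so no difference below could be set against the spread between animals, and no test between conditions was possible. A gene was called higher or lower when the log2 of its IL-4 level over its NT level was at least 0.75 in size and its exact (Clopper-Pearson) 95% counting interval left out 0. The ratio was taken from counts scaled to the library totals with 0.5 count added in each. Such a call compares the reads of a pair of libraries, not the conditions. Intervals and the floor cover counting error only, and copies of a molecule made by PCR were counted as separate reads. Levels within a library are given as FPKM, the number of fragments per kilobase of transcript scaled to a common depth, which is scaled for length and so can be compared between genes.

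All 8 macrophage markers were listed, with summed levels of 17095 CPM in NT and 17408 CPM in IL-4. Of 45 markers of 8 other cell types, 33 were listed and 12 were not. Their summed levels stood between 2.49 and 21.4 CPM in either library for every list but the adipocyte list. The latter rested on Fabp4, which macrophages also express (4103 counts in NT and 4994 in IL-4), and on Adipoq (0 and 139 counts). Csf1r, 2 mesothelial markers and Adipoq were called higher, Cd14 and 1 eosinophil marker lower, and the part of these cells in the results was not tested. All 7 M2 genes with at least 20 counts were called higher (against 4.66% of all genes with as many), and the list of 8 summed to 230 CPM in NT and 2525 CPM in IL-4. The list was taken from the study's own M2 genes, so this is a description. With 3 counts in NT and 72 in IL-4, Ccl24 could pass the count threshold only with a higher count in IL-4. In these bulk samples, fewer cells of a type and less RNA per cell cannot be told apart.

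Promoter sequences are shown for the called carriers that hold the spaced palindrome bound by STAT6, the transcription factor that IL-4 activates, namely TTC and GAA separated by any 4 bases. The motif reads the same on both strands, so 1 search covered both. Windows ran from 250 bases before to 50 after each start site (RefSeq, GRCm38.p6), and 142 of the 190 genes had at least 1. The 30 bases around each match are printed 5′ to 3′ on the strand of the gene, with the match in capitals. The Slc43a2 stretch is chr11:75531891-75531920 on the plus strand, that of Slc28a2 is chr2:122426224-122426253 on the plus strand, and that of Slc25a25 is chr2:32424017-32424046 on the minus strand.
Slc43a2: cgggatccgcTTCTATGGAAacgggctaat
Slc28a2: cttgccaattTTCTGAGGAAaatacagtgc
Slc25a25: ctggtgctagtTTCCTGGGAAtaccggcat
The first base of the match lay 211 bases before the start site in Slc43a2, 201 before it in Slc28a2 and 32 after it in Slc25a25. In Slc43a2 this start site and the match lie inside the span of the gene (chr11:75529915-75577575), not upstream of it. Slc43a2 and Slc28a2 were called lower in the IL-4 library and Slc25a25 was called higher (values below). Counted by gene over all its windows, the motif was present in 8 of the 142 genes (5.63%). The share was 6.64% for genes with a window and at least 20 counts, and 8.01% for all 27025 genes with a window. By call, it stood in 1 of 5 higher carriers with a window and in 2 of 14 lower carriers with a window. The other matches were in Slc50a1, Slc35b4, Slc37a4, Slc35e4 and Slc30a5, which were not called. A match describes the letters in the window and is no measurement of binding.

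Most of the carriers stood at close levels in both libraries, and the called genes were spread over many subfamilies. Of the 190 genes, 11 were called higher upon IL-4 (5.79%, against 4.66% of all 11653 genes with at least 20 counts). A further 20 were called lower (10.5%, against 7.57%), and 159 were not called. The share called higher was near the background, and the share called lower was somewhat above it. Transcript length moved with these calls, and after the length trend was subtracted the lower share was 6.84% against 5.56% (given below). The median log2 ratio was -0.04 (-0.02 over all 11653 genes), with quartiles of -0.38 and 0.20 (-0.33 and 0.22 over all genes). In all, 89 of the 190 lay within 0.25 of 0. Together these genes held 1.13% of all counts in NT and 1.04% in IL-4.

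**Figure D1:**
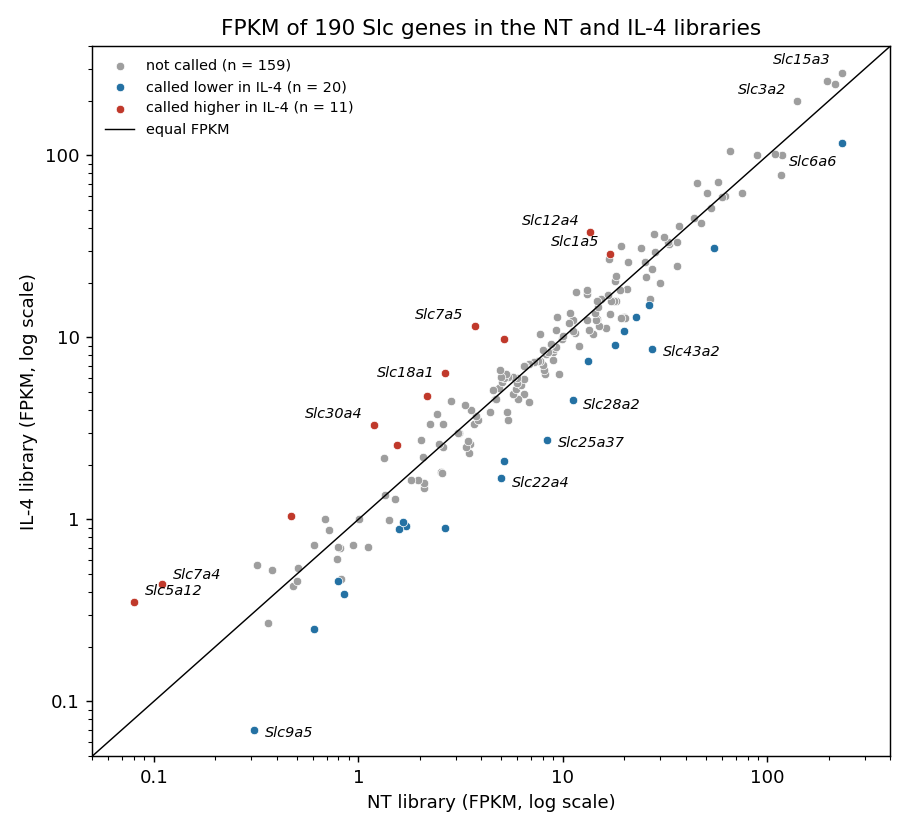
FPKM of each of the 190 Slc genes in the NT library (x axis, log scale) and the IL-4 library (y axis, log scale), with 1 point per gene, red for the 11 called higher, blue for the 20 called lower and grey for the 159 not called. Most points lie along the line of equal FPKM over levels from 0.07 to 282, and the red and blue points leave it at low, middle and high levels.

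Levels spanned 0.08 to 231 FPKM in NT and 0.07 to 282 FPKM in IL-4. A mean of at least 100 FPKM was reached by 7 genes and a mean of at least 10 by 81, while 22 were below 1. The most abundant was Slc15a3, a proton-coupled transporter that exports histidine and small peptides from endolysosomes, with 231 FPKM in NT and 282 in IL-4 (log2 ratio 0.29). Next came the mitochondrial phosphate carrier Slc25a3 (215 and 246 FPKM) and the ADP/ATP carrier Slc25a5 (196 and 258 FPKM). Neither was called, with log2 ratios of 0.19 and 0.39. Of the 12 most abundant genes, the taurine transporter Slc6a6 alone was called.

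Among the 29 carriers of amino acids and peptides, 4 were called higher (13.8%, against 4.66% of all genes) and 3 lower (10.3%, against 7.57%). The other 22 were not called, and the median log2 ratio of the group was 0.00. Slc7a5 (LAT1, chr8:121881146-121907686) is the light chain of the exchanger that takes up leucine and other large neutral amino acids in return for glutamine. It had 145 counts in NT and 461 in IL-4, or 3.71 and 11.57 FPKM, a log2 ratio of 1.64 (95% interval 1.37 to 1.92) and a 3.11-fold higher level. Its heavy chain Slc3a2, without which the light chain does not reach the cell surface, stood far higher in both libraries (140 and 199 FPKM). The log2 ratio of Slc3a2 was 0.51 (0.45 to 0.57), below the threshold. The other light chains were not called, with 11.16 and 12.30 FPKM for Slc7a8 (log2 ratio 0.14). The glutamine transporter Slc1a5 had 521 counts in NT and 901 in IL-4 (17.04 and 28.88 FPKM), a log2 ratio of 0.76 (0.61 to 0.92). It lies just past the threshold.

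The lower carriers of this group included 2 of the more abundant amino acid transporters of the cells. Slc43a2 (LAT4, chr11:75529915-75577575), which lets large neutral amino acids flow along their gradient, had 2154 counts in NT and 696 in IL-4. Its level was 27.38 FPKM in NT and 8.64 FPKM in IL-4, a log2 ratio of -1.66 (-1.78 to -1.53), or 3.15-fold lower. Slc6a6 (chr6:91684048-91759063), which takes up taurine with sodium and chloride, had 15882 counts in NT and 8277 in IL-4. These counts are the most of any member, and the FPKM was 230 in NT and 118 in IL-4 (log2 ratio -0.97, interval -1.01 to -0.93). The proton-coupled lysosomal exporter Slc36a1 was the other lower gene (26.42 and 15.09 FPKM, log2 ratio -0.81). The creatine transporter Slc6a8 was not called at 116 FPKM in NT and 77.84 FPKM in IL-4 (log2 ratio -0.58). Summed over the group, the level was 4225 CPM in NT and 3432 CPM in IL-4. Slc6a6 alone held 1439 CPM in NT and 736 CPM in IL-4, so most of this difference was that gene. The FPKM of the group summed to 1068 in NT and 993 in IL-4. Slc6a6 and Slc36a1 did not remain called after the length trend was subtracted.

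The rest of this group was close between the libraries or rested on few reads. The glycine transporter Slc6a9 (17 and 39 counts, log2 ratio 1.15, interval 0.31 to 2.08) and Slc7a4 (4 and 16 counts, log2 ratio 1.85, interval 0.34 to 4.01) were called higher at low counts. With 4 counts in NT, Slc7a4 could pass the count threshold only with a higher count in IL-4, so its difference follows from the selection. Slc38a9, the lysosomal arginine sensor of the mTORC1 pathway, had 2.85 and 4.45 FPKM (log2 ratio 0.64, interval 0.43 to 0.86) and was not called. The glutamine and alanine transporter Slc38a2 had 47.15 and 42.77 FPKM (log2 ratio -0.14). Slc15a4, the relative of Slc15a3 that is needed for signaling by endosomal Toll-like receptors, had 26.79 and 16.19 FPKM (log2 ratio -0.73). It stood just short of the threshold.

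Of the 21 carriers of sodium, potassium, calcium, chloride, bicarbonate and protons, 1 was called higher and 7 lower, with a median log2 ratio of -0.25. The lower share was 33.3%, against 7.57% of all genes. After the length trend was subtracted, 4 of the 21 were lower (19%, against 5.56%). The group was formed with earlier results of these data known, so these shares are descriptions. The higher gene was Slc12a4 (KCC1, chr8:105943590-105966149), a potassium-chloride cotransporter that lets both ions leave the cell and lowers its volume. It had 579 counts in NT and 1640 in IL-4, or 13.60 and 37.76 FPKM (log2 ratio 1.47, interval 1.34 to 1.61). Slc12a2 (NKCC1), which brings sodium, potassium and chloride into the cell, was called lower (125 and 68 counts, 1.72 and 0.92 FPKM, log2 ratio -0.90, interval -1.35 to -0.47). Slc12a7 (5.29 and 6.32 FPKM) and Slc12a9 (4.42 and 3.91 FPKM) were not called. The FPKM ratio of Slc12a4 to Slc12a2 was 7.91 in NT and 41.0 in IL-4.

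Of the 3 sodium-calcium exchangers, 2 were called lower, where 7.57% of all genes were, and 1 remained so after the length trend was subtracted. With so few genes, this is a description. Slc8b1, the mitochondrial exchanger that releases calcium from the matrix, had 1695 and 986 counts (54.91 and 31.19 FPKM, log2 ratio -0.81, interval -0.92 to -0.70). Slc8a1 of the plasma membrane had 332 and 189 counts (1.59 and 0.89 FPKM, log2 ratio -0.84). The potassium-dependent Slc24a5 was not called (42 and 36 counts, log2 ratio -0.25). The Slc8a1 transcript is the longest of all 190, and its ratio was -0.23 (-0.50 to 0.03) after the length trend was subtracted. Of the sodium-proton exchangers, Slc9a4 was called lower (219 and 91 counts, 5.15 and 2.10 FPKM, log2 ratio -1.29), as was Slc9a5 (18 and 4 counts, log2 ratio -2.07, interval -4.22 to -0.60). With 4 counts in IL-4, Slc9a5 could pass the count threshold only with a higher count in NT, so its difference follows from the selection. The organellar exchangers Slc9a7, Slc9a8 and Slc9a9 were not called. The sulfate exchanger Slc26a1, counted in this group with the rest of subfamily Slc26, was also lower (34 and 16 counts, log2 ratio -1.09).

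**Figure D2:**
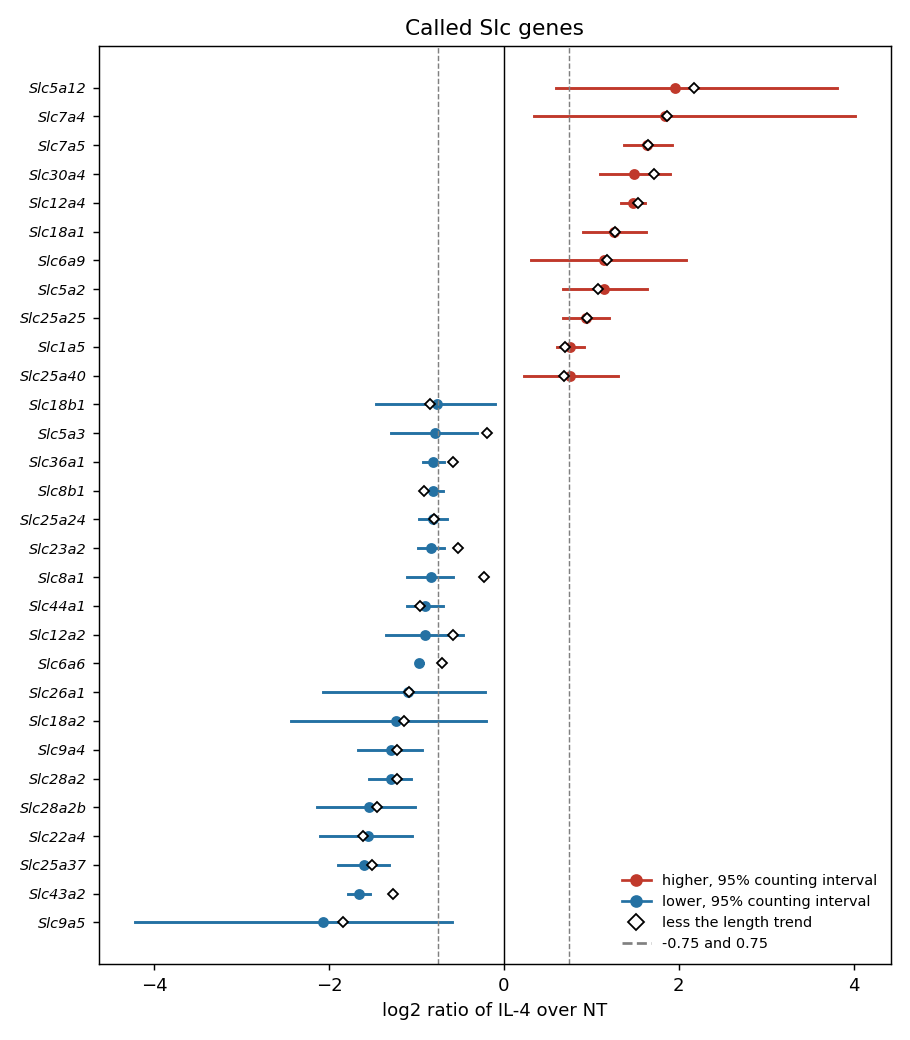
Log2 ratio of IL-4 over NT (x axis) for called Slc genes (y axis, red higher and blue lower), with a point for the ratio, a line for its exact 95% counting interval, an open diamond for the ratio less the length trend and dashed lines at 0.75 in size. The intervals are narrow for Slc6a6 (-1.01 to -0.93) and Slc12a4 (1.34 to 1.61) and wide for Slc9a5 (-4.22 to -0.60) and Slc7a4 (0.34 to 4.01).

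The 18 carriers of nucleosides, vitamins, choline, heme and vesicular amines held 6 lower genes and 1 higher gene (median log2 ratio -0.35). The lower share was 33.3% and the higher share 5.56%, against 7.57% and 4.66% of all genes. After the length trend was subtracted, 5 were lower (27.8%, against 5.56%). This group too was formed with earlier results of these data known, so these shares are descriptions. Slc28a2, which takes up purine nucleosides and uridine with sodium, had 485 and 201 counts (11.16 and 4.53 FPKM, log2 ratio -1.30, interval -1.54 to -1.06). Its neighbor on chromosome 2, Slc28a2b, had 110 and 38 counts (log2 ratio -1.55). About 51.0% of the 31-base words of the Slc28a2 transcript also occur in Slc28a2b, so the division of reads between them is uncertain. Their sum, which does not depend on that division, was 595 counts in NT and 239 in IL-4 (log2 ratio -1.34, interval -1.57 to -1.12). The facilitative nucleoside transporter Slc29a1 was not called at 36.28 and 24.75 FPKM (log2 ratio -0.55), nor was the lysosomal Slc29a3 at 75.59 and 62.57 FPKM (log2 ratio -0.27). The log2 ratio of Slc28a2 was 0.75 lower than that of Slc29a1 (counting interval of the difference -1.04 to -0.46).

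A choline carrier and a vitamin C carrier were called lower too. Slc44a1, which supplies choline for phospholipid synthesis, had 553 and 302 counts (17.97 and 9.13 FPKM, log2 ratio -0.90). Slc23a2, a sodium-coupled transporter of ascorbate, had 962 and 550 counts (13.27 and 7.44 FPKM, log2 ratio -0.83), and was not called after the length trend was subtracted (-0.52). The other choline carrier, Slc44a2, was not called at 1158 and 789 counts (log2 ratio -0.58). In contrast, carriers of heme and folate were not called: Slc48a1, which returns heme from phagolysosomes, had 109 and 102 FPKM (log2 ratio -0.10), and Slc46a1, a proton-coupled carrier of folate, had 3.83 and 3.53 FPKM (log2 ratio -0.12).

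All 3 genes of the vesicular amine subfamily Slc18 were called, 1 higher and 2 lower, where 4.66% and 7.57% of all genes were. With so few genes, this is a description. Slc18a1 (VMAT1, chr8:69037708-69089238), which loads monoamines into vesicles, had 92 and 225 counts (2.66 and 6.37 FPKM, log2 ratio 1.26, interval 0.91 to 1.63). Slc18a2 (VMAT2), which does the same in neurons and mast cells, was lower at 26 and 11 counts (log2 ratio -1.23, interval -2.43 to -0.20). Of the 6 mast cell markers, 5 were listed, with a summed level of 6.25 CPM in NT and 4.44 CPM in IL-4, and Fcer1a was not listed. Their part in the Slc18a2 result was not tested. Slc18b1, a vesicular carrier of polyamines, had 51.9 and 31.01 counts (log2 ratio -0.76), just past the threshold. Its call was lost under some other scalings of the libraries (given below).

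The mitochondrial carriers (Slc25) were the largest subfamily, with 36 genes and a median log2 ratio of 0.08. Of these, 2 were called higher and 2 lower (5.56% each, against 4.66% and 7.57% of all genes). Slc25a37 (mitoferrin-1, chr14:69241848-69285544), which brings iron into mitochondria for heme and iron-sulfur cluster synthesis, had 387 and 130 counts. Its level was 8.35 FPKM in NT and 2.75 FPKM in IL-4 (log2 ratio -1.60, interval -1.90 to -1.31), or 3.03-fold lower. Its relative Slc25a28 (mitoferrin-2) had 19.34 and 12.75 FPKM and was not called (log2 ratio -0.60, interval -0.85 to -0.35). The calcium-regulated ATP-magnesium/phosphate carriers were called in opposite directions. Slc25a25 had 188 and 367 counts (5.13 and 9.86 FPKM, log2 ratio 0.94, interval 0.68 to 1.20), and Slc25a24 had 858 and 498 counts (22.82 and 12.99 FPKM, log2 ratio -0.81). Slc25a24 remained the more abundant of the pair in both libraries, with an FPKM ratio of Slc25a25 to Slc25a24 of 0.225 in NT and 0.759 in IL-4. Slc25a40 was called higher at 48 and 83 counts (log2 ratio 0.76). The citrate carrier Slc25a1 was not called, with 37.02 and 40.87 FPKM (log2 ratio 0.14), nor was the ADP/ATP carrier Slc25a4, with 57.23 and 71.34 FPKM (log2 ratio 0.32).

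Carriers of sugars and monocarboxylates (23 genes) held 2 higher genes and 1 lower gene, all in the sodium-coupled subfamily Slc5. These shares were 8.7% and 4.35%, against 4.66% and 7.57% of all genes. Slc5a2 (SGLT2), known as the glucose transporter of the kidney tubule, had 54 and 122 counts (2.16 and 4.79 FPKM, log2 ratio 1.14, interval 0.67 to 1.64). Slc5a12, a carrier of lactate, had 4.81 and 20.51 counts (log2 ratio 1.96, interval 0.60 to 3.81). With 4.81 counts in NT it could pass the count threshold only with a higher count in IL-4, so its difference follows from the selection. Slc5a3, which takes up myo-inositol as an osmolyte, was lower (97.34 and 57.41 counts, 0.80 and 0.46 FPKM, log2 ratio -0.78). Slc5a3 has a long transcript, and its ratio was -0.19 (-0.70 to 0.29) after the length trend was subtracted. The facilitative glucose transporters of the Slc2 subfamily were not called. Slc2a1 (GLUT1) had 27.86 and 37.01 FPKM (log2 ratio 0.41, interval 0.28 to 0.54), and the lysosomal Slc2a6 had 16.89 and 26.89 FPKM (log2 ratio 0.68, interval 0.49 to 0.86). Slc2a3 (GLUT3) stood at 0.36 and 0.27 FPKM. Among lactate transporters, Slc16a1 (MCT1) had 5.14 and 6.00 FPKM and Slc16a3 (MCT4) had 15.03 and 11.51 FPKM, with log2 ratios of 0.22 and -0.38. In the Slc16 subfamily 1 of 7 genes had a ratio above 0, and none was called. The sugar-phosphate exchangers Slc37a2 (32.64 and 33.56 FPKM) and Slc37a4 (4.92 and 6.60 FPKM) were not called.

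Among 22 carriers of zinc, copper and magnesium, only Slc30a4 was called (4.55% higher, against 4.66% of all genes, and 0% lower, against 7.57%). Slc30a4 (ZnT4, chr2:122681233-122702663), which moves zinc from the cytosol into vesicles, had 71 and 204 counts. Its level was 1.19 FPKM in NT and 3.30 FPKM in IL-4, a log2 ratio of 1.49 (1.10 to 1.91) and a 2.81-fold higher level. The zinc exporter of the plasma membrane, Slc30a1, had 18.15 and 15.77 FPKM (log2 ratio -0.20). None of the 11 zinc importers (Slc39) was called, with log2 ratios from -0.35 (Slc39a14) to 0.63 (Slc39a6). Slc39a1 was the most abundant of these (88.62 and 100.8 FPKM), Slc39a10 had 13.44 and 10.96 FPKM, and Slc39a8 had 2.49 and 2.60 FPKM. Slc31a2, a protein of the copper transporter family, had 65.93 and 105.84 FPKM (log2 ratio 0.68, interval 0.58 to 0.78), while the copper importer Slc31a1 had a log2 ratio of 0.06.

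In the remaining groups a single gene was called (over all genes, 4.66% were called higher and 7.57% lower). Slc22a4 (chr11:53983115-54030040), a transporter of the antioxidant ergothioneine, had 124.62 and 43 counts. Its level was 4.99 FPKM in NT and 1.69 FPKM in IL-4 (log2 ratio -1.55, interval -2.10 to -1.06). The carnitine transporter Slc22a5, its neighbor and close relative, had 3.10 and 3.0 FPKM and was not called. The other 8 carriers of organic ions, bile acids and lipids were not called, among them the fatty acid transport protein Slc27a1 at 52.80 and 51.29 FPKM. Of the 21 carriers of nucleotide sugars and acetyl-CoA in the Golgi and endoplasmic reticulum, none was called, and the Slc35 genes ran from -0.64 (Slc35e3) to 0.65 (Slc35f6, 45.32 and 70.98 FPKM). None of the 5 carriers of phosphate and carboxylates was called. Slc20a1, a sodium-coupled phosphate importer, had 16.92 and 13.49 FPKM, and the lysosomal sialic acid exporter Slc17a5 had 19.34 and 31.82 FPKM (log2 ratio 0.72, interval 0.58 to 0.86). Of the 190 genes, 6 bear an Slc symbol without encoding a carrier (for example the scaffold Slc9a3r1, at 118 and 100.5 FPKM), and none of these was called.

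**Figure D3:**
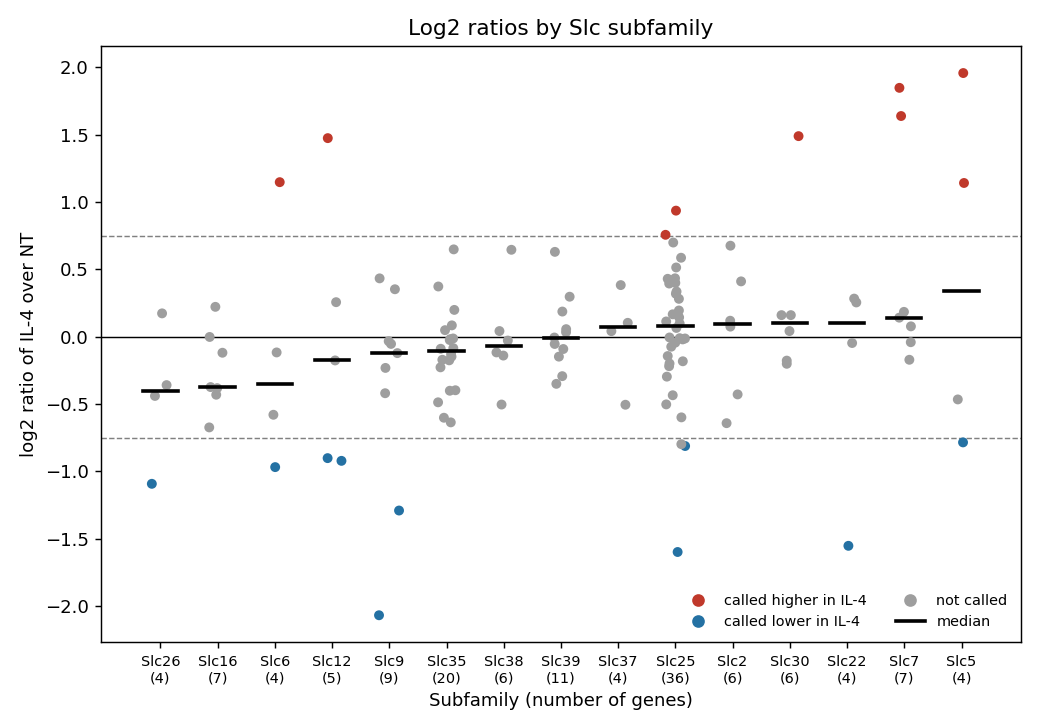
Log2 ratio of IL-4 over NT (y axis) for the genes of the 15 Slc subfamilies with at least 4 members (x axis, number of genes in parentheses), with 1 point per gene, a black bar at the median and dashed lines at the threshold of 0.75. Medians run from -0.40 (Slc26) to 0.34 (Slc5), and subfamilies Slc5, Slc6, Slc12 and Slc25 hold both red (higher) and blue (lower) points.

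By subfamily, the 190 genes fell into 43 groups, of which 15 held at least 4 genes. The medians of all 15 lay within 0.5 of 0, from -0.40 in Slc26 to 0.34 in Slc5, and these differences had no test. Of these 15, Slc2, Slc16, Slc35, Slc37, Slc38 and Slc39 held no called gene. Calls in both directions occurred in Slc5, Slc6, Slc12, Slc18 and Slc25. The sum of FPKM over the 4 Slc6 genes was 354 in NT and 203 in IL-4, most of it Slc6a6.

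Since relatives with shared substrates were called in opposite directions, the difference of their log2 ratios was computed with its counting interval, for pairs chosen after the values were seen and therefore as a description. The difference was 3.29 (2.997 to 3.60) between Slc7a5 and Slc43a2, both carriers of large neutral amino acids, and their FPKM ratio was 0.136 in NT and 1.34 in IL-4. It was 2.37 (1.92 to 2.85) between Slc12a4 and Slc12a2, which move potassium and chloride out of and into the cell. For the vesicular monoamine transporters Slc18a1 and Slc18a2 it was 2.49 (1.39 to 3.75), and for Slc25a25 and Slc25a24 it was 1.75 (1.44 to 2.06). Of these 4 pairs, the more abundant transcript was a different one in each library for Slc7a5 with Slc43a2. The difference between Slc15a4 and Slc15a3 was -1.02 (-1.19 to -0.85), although neither was called.

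**Figure D4:**
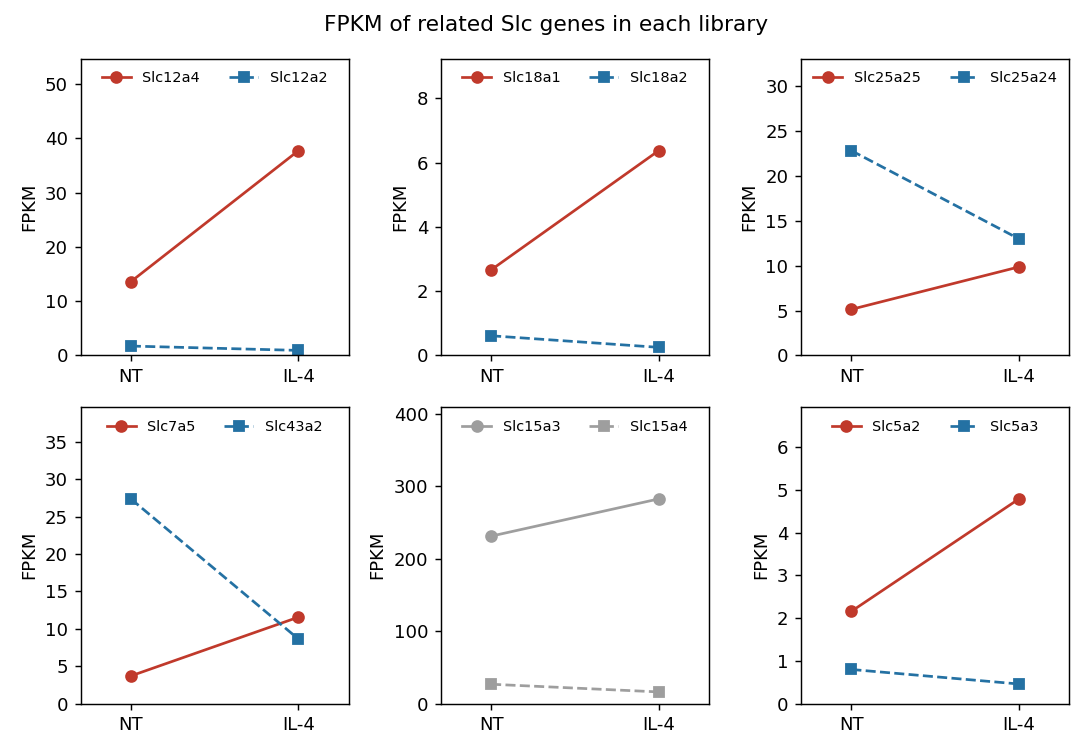
FPKM (y axis, from 0) in the NT and IL-4 libraries for 6 pairs of related carriers, 1 panel per pair, with red lines for genes called higher, blue for those called lower and grey for those not called. The lines cross for Slc7a5 with Slc43a2 (3.71 to 11.57 against 27.38 to 8.64), and not for Slc12a4 with Slc12a2 or Slc25a25 with Slc25a24.

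Transcript length moved with the ratio. Across the 190 genes the Spearman correlation of the log2 ratio with length was -0.25, and across all 8461 genes with at least 200 counts it was -0.45, as descriptions over genes of the same pair of libraries. Of the 64 longest genes (3697 to 18604 bases), 14 were called lower and 3 higher. Of the 63 of middle length (2563 to 3658 bases), 5 were called lower and 7 higher. Of the 63 shortest (1031 to 2528 bases), 1 was called lower and 1 higher. The shares among all genes of like length were not computed. When the ratio of each gene was taken less the median of its 200 neighbors in length, 10 were called higher (5.26%, against 4.63% of all genes) and 13 lower (6.84%, against 5.56%). In all, 22 of the 31 called genes kept their call. The call was lost by the higher genes Slc1a5 and Slc25a40 and by lower genes that included Slc6a6, Slc12a2, Slc23a2, Slc36a1, Slc5a3 and Slc8a1. It was gained by Slc38a9. The adjusted log2 ratio was -0.71 for Slc6a6, -1.27 for Slc43a2, 1.65 for Slc7a5 and 1.54 for Slc12a4. The part of length in these results was not tested.

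**Figure D5:**
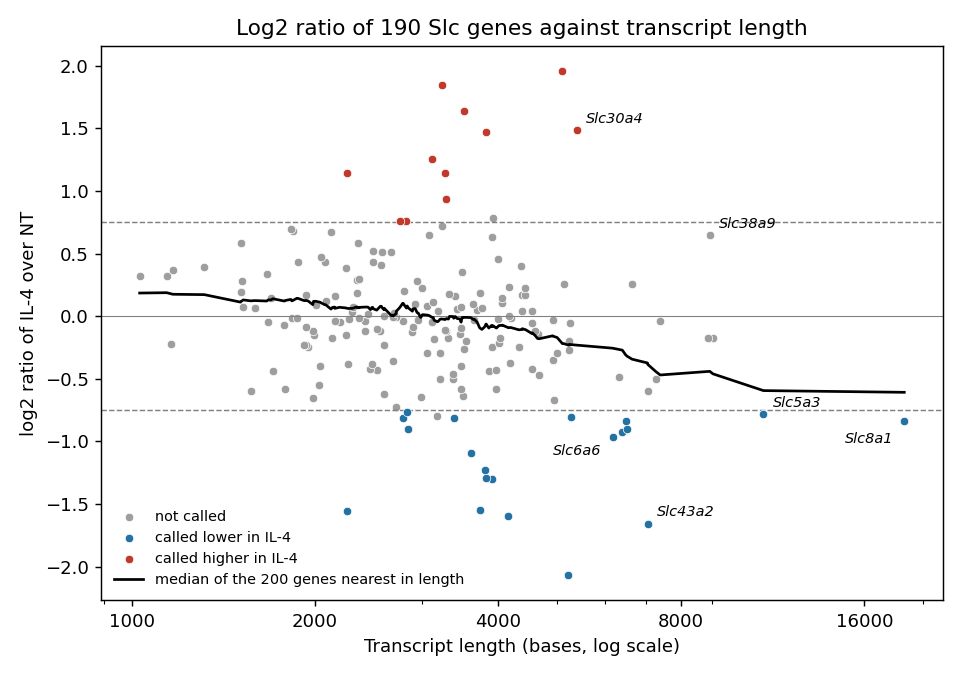
Log2 ratio of IL-4 over NT (y axis) against transcript length in bases (x axis, log scale) for the 190 Slc genes, with red for genes called higher, blue for those called lower, grey for the others, a black line at the median over the 200 genes of most similar length and dashed lines at 0.75 in size. The line falls with length, and Slc5a3 and Slc8a1 lie close to it, whereas Slc43a2 and Slc30a4 lie away from it.

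A stricter call, with the whole counting interval past 0.75, was met by 4 higher genes (2.11%, against 2.66% of all genes) and 8 lower genes (4.21%, against 2.79%). The higher genes were Slc7a5, Slc30a4, Slc12a4 and Slc18a1. The lower genes included Slc43a2, Slc25a37, Slc22a4, Slc28a2, Slc28a2b, Slc9a4 and Slc6a6. A 2-fold difference was reached by 8 of the 11 higher and 9 of the 20 lower genes. In GENCODE, 16 of the 31 called genes share exon bases with another gene, in part on the opposite strand, and reads there cannot be told apart unless the counting used strand, which was not given in the sources used here. Among them, Slc5a3 shares 159 bases with Mrps6 and Slc6a9 shares 1429 of 5141 with Ccdc24.

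Carriers with other symbols and helper proteins were described from a list. Of 57 related carriers (such as the Slco, Mpc, Sfxn and Mfsd genes), 48 were listed and 38 had at least 20 counts. Of the 38, 1 was called higher and 2 lower, where 4.66% and 7.57% of all genes were. Their median log2 ratio was -0.03. The organic anion transporters Slco2b1 (2 and 28 counts, log2 ratio 3.48, interval 1.79 to 6.89) and Slco4a1 (223 and 42 counts, log2 ratio -2.42) were called in opposite directions. With 2 counts in NT, Slco2b1 could pass the count threshold only with a higher count in IL-4, so its difference follows from the selection. Nipal3, a relative of magnesium transporters, had 447 and 264 counts (log2 ratio -0.79), and was not called after the length trend was subtracted (-0.57). The mitochondrial pyruvate carrier subunits Mpc1 (84.34 and 85.29 FPKM) and Mpc2 (26.78 and 27.21 FPKM) were close between the libraries. Of 3 helper proteins, the cofactor of sodium-proton exchangers Chp1 was called higher, with 3047 and 6954 counts (105 and 234 FPKM, log2 ratio 1.16), while Slc9a4 and Slc9a5 were lower. The chaperones of the lactate transporters were not called, at 195 and 202 FPKM for Bsg and 54.00 and 53.35 FPKM for Emb.

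At the edge of the selection, the 3 genes just inside the threshold of 20 counts were Slc7a4 (sum 20), Slc9a5 (sum 22) and Slc39a4 (sum 23, with 12 and 11 counts). The 3 just outside were Slc16a9 (11 and 8 counts), Slc27a3 (12 and 6 counts) and Slc23a1 (12.67 and 4.83 counts). In all, 272 Slc genes were listed, of which 76 fell under the threshold, and all 190 members were listed in both libraries.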

How the data were processed

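The deposited tables, 1 per library, hold for each gene an expected count and an FPKM value. Per the labels and the study's methods, the authors mapped reads to GRCm38/mm10 with Bowtie and estimated expected counts and FPKM with RSEM; versions are not given in the sources used here. Expected counts are not scaled for depth and FPKM is scaled for depth and length. A gene absent from a table was set to 0. Gene numbers were matched to symbols through a RefSeq table for GRCm38.p6 (15587 of 15623, with 36 unmatched), which gave the coordinates.

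Log2 ratios used expected counts scaled to library totals with 0.5 added. Counts were rounded for the intervals. The members, role groups and lists were chosen with earlier results of these data known. Genes named are, of called genes reaching 50 counts in 1 library, those with the 14 highest and 14 lowest ratios, the 12 most abundant, the extremes and most abundant gene of each subfamily with at least 4 genes, the genes at the threshold, and a list with known parts in macrophages. Other called genes, those near the threshold, relatives and related carriers were named after their values were seen. The length trend used the 200 nearest genes with at least 200 counts. Alternatives were TMM (edgeR 4.0.16) and median-of-ratios (DESeq2 1.42.0) scaling, library totals that leave out the top 100 genes, log2 of FPKM plus 0.1 or 1, other count minimums and thresholds, whole counts only, and exact tests in edgeR at assumed levels of biological variation. The calling was tested on simulated data. Some genes that enter the counts are not reported here by name. The analysis ran in R 4.3.3 and in Python 3.11.15 with pandas 2.3.3, scipy 1.17.1, numpy 2.4.6 and, for plots, matplotlib 3.10.9.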

Additional observations from a re-analysis of the deposited data

How the results depend on the processing

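With 1 library per group, no replicate could be left out. No paired analysis was possible because NT and IL-4 hold 1 library each. No called gene named here turned direction under the alternatives run for it, which is no support for the calls. Other thresholds, count minimums and exact tests keep the ratio, and scaling moved it by far less than 0.75. Uncalled ratios near 0 could turn, such as Slc30a1 (-0.20) at 0.03 and Slc38a2 (-0.14) at 0.04 less the length trend. The 11 higher genes became 6 with 1 added to FPKM, 19 at a threshold of 1.5-fold and 4 with the whole interval past 0.75. The edgeR exact test gave 7, 2 and 0 where the coefficient of variation was assumed to be 0.1, 0.2 and 0.4. The 20 lower genes became 13 with 1 added to FPKM, 13 after subtraction of the length trend, 9 at a log2 ratio of 1 and 8 with the whole interval past 0.75. With whole counts only there were 10, since 20 of the 31 called genes had whole counts. That setting only drops genes and could not change the call of those 20. The edgeR test gave 2 and 0 at 0.2 and 0.4. The 4 calls kept at 0.2 were Slc7a5, Slc12a4, Slc43a2 and Slc25a37. The medians of small subfamilies moved with the genes kept: Slc5 was at -0.47 with at least 50 and with at least 100 counts, Slc6 at -0.58 with at least 100 counts and at 0.089 with whole counts only, and Slc22 at -0.80 with at least 100 counts. TMM scaling ended the calls of Slc18b1 and Slc5a3 and added Slc17a5, median-of-ratios scaling ended that of Slc18b1, and the total without the 100 most abundant genes ended those of Slc1a5 and Slc25a40. Leaving out the 6 genes that encode no carrier, chosen after seeing the data, could change no call, since none of the 6 was called. Scaling moved the median of all genes between -0.04 and 0.01. Genes with few counts have wide intervals, and variation between animals was not measured.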

Other observations

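Below the threshold of 20 counts, 28 Slc genes were listed in 1 library only. Among them Slc35g2 had 0 counts in NT and 11 in IL-4, and Slc22a21, a neighbor of Slc22a4 and Slc22a5, had 10.95 counts in NT and 0 in IL-4. Slc4a3, an anion exchanger, had 14 counts in NT and 1 in IL-4. These genes were named after their values were seen.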
